A study of Mus musculus with 4 samples.

Results

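The genes described here carry out or control the making, uptake, movement, storage and export of cholesterol in mouse liver. The set holds 30 named genes of the 25239 that the count tables list. Of these, 18 are enzymes of the mevalonate and sterol pathway, and 4 encode the transcription factor SREBP-2 or control it. Another 4 belong to cholesterol uptake and transfer, and 4 to storage and export. All 30 genes were taken by name and had enough counts to be tested. Liver RNA came from C57BL/6 mice aged 6 to 8 weeks. The control group was given normal saline and the extract group an extract of Gynura segetum, a medicinal plant containing pyrrolizidine alkaloids, into the stomach. Dosing was daily over 3 weeks, with 30 g/kg each day, and the stock held 2 g/mL. Each group has 2 libraries. The labels give no sex, collection time or feeding state, and do not tell to which mouse each library belongs, so each p-value reflects only how far these samples vary, and that variation may be technical.

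Cholesterol is built from acetyl-CoA, first through mevalonate to farnesyl diphosphate and then through squalene and lanosterol. SREBP-2, encoded by Srebf2, switches most of these enzymes on together when membrane cholesterol is low. Scap carries SREBP-2 to the Golgi for cleavage, and the Insig proteins hold the Scap complex in the endoplasmic reticulum when sterols are plentiful. The liver also takes cholesterol from high-density lipoprotein, stores it as esters and exports it to bile through the Abcg5 and Abcg8 pair.

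Between 32215268 and 49711750 reads per library were counted to genes, and each member had at least 702 counts in every library. Values are CPM, counts scaled to library size and composition. The defining liver transcript, that of albumin, took 10.2% and 10.1% of counts among controls and 7.47% and 7.77% after the extract, with no overlap. Markers of several cell types differed between the groups, where 4.91% of all 13963 genes tested were called higher and 3.63% lower. The summed level of 10 Kupffer cell markers was 705 and 580 CPM in the control libraries and 66.9 and 72.3 CPM in the extract libraries, with 10 of 10 lower (Vsig4, Clec4f, Cd5l, Folr2 and Timd4 by smallest p) and none at 0. The sum of 10 sinusoidal endothelial markers went from 414 and 406 to 282 and 264 CPM, with 6 of 10 lower (Mrc1, Stab2, Gpr182, Fcgr2b and Clec4g by smallest p). The list was not uniform: 3 of 10 had a positive log2 fold change, up to 0.84, and none was called higher. The sum of 10 hepatocyte markers went from 151181 and 158733 to 101529 and 108211 CPM, with 3 of 10 lower (Serpina1a, Apoa1 and Ahsg) and 1 of 10 with a positive log2 fold change. Stellate cell markers had 4 of 10 lower (Colec10, Angptl6, Ecm1 and Colec11) and sums of 843 and 605 against 453 and 445 CPM. Their log2 fold change was positive in 3 of 10. Monocyte markers had 1 of 10 higher (Gpnmb) and 2 lower (Cd68 and Lyz2) and sums of 205 and 163 against 116 and 93.7 CPM, with 5 of 10 log2 fold changes positive. Of 6 cholangiocyte markers 1 was lower (Sox9), with sums of 43.6 to 50.7 CPM over the 4 libraries. Most of that list went the other way, with 4 of 6 log2 fold changes positive, a median of 0.73 and none called higher. Of 6 T and B cell markers none passed in edgeR (1 at an unadjusted p under 0.05), with 6 of 6 log2 fold changes negative. Their sums were 13.2 and 2.52 CPM in control replicates 1 and 2, against 1.99 and 2.71 CPM in the extract libraries. The high sum was thus that of 1 control library only. In bulk liver, fewer cells of a type and less RNA per cell cannot be told apart, and the part of these shifts in the results below was not tested.

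The upstream stretches of the genes on which the results turn are printed first, because SREBP-2 is known to act with the CCAAT-binding factor NF-Y close to the start sites of its targets. RefSeq promoter windows (GRCm38.p6, the assembly of mm10) were found for 23 of the 30 genes and not for Fdps, Fdft1, Sqle, Stard4, Npc1, Scarb1 and Soat2. Each sequence runs 5′ to 3′ on the gene's strand and leaves out exons annotated by GENCODE. RefSeq gene spans differ: that of Insig2 reaches 121332662 and that of Lss starts at 76531565. The printed stretches of both therefore lie partly inside the RefSeq gene, with the Insig2 CCAAT matches at 46 and 29 bases. The Insig2 start named below is the farthest upstream among the windows found. Capitals mark a sterol regulatory element core, TCACNCCA, or a CCAAT box, CCAAT, each on either strand. A TCACNCCA match followed by AT would contain a CCAAT match, and none of the printed ones did. Acat2 and Lss were the genes that rose, Insig2 fell, and Hmgcs1, Mvd and Srebf2 show the motifs in genes whose values varied between control libraries or that control the pathway.
Acat2, chr17:12960748-12960975, minus strand: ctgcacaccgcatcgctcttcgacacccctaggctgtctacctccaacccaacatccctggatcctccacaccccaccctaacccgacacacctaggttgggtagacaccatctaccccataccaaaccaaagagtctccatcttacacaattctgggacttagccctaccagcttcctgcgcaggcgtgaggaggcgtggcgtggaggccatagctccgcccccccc
Lss, chr10:76531355-76531587, plus strand: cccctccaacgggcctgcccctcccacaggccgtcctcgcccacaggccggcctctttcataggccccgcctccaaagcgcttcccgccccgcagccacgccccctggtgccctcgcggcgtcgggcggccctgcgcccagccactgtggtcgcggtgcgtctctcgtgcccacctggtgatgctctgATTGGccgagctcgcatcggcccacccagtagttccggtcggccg
Insig2, farthest upstream start, chr1:121332590-121332839, minus strand: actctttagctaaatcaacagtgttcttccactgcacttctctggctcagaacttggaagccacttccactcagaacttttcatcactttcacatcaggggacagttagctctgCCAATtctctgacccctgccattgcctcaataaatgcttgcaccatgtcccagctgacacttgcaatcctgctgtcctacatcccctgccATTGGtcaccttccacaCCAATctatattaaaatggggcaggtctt
Hmgcs1, chr13:119690101-119690350, plus strand: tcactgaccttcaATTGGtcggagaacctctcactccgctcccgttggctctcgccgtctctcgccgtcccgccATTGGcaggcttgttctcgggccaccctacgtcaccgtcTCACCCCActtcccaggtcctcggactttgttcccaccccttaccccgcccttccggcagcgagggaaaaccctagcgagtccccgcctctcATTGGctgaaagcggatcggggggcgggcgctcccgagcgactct
Mvd, chr8:122443423-122443672, minus strand: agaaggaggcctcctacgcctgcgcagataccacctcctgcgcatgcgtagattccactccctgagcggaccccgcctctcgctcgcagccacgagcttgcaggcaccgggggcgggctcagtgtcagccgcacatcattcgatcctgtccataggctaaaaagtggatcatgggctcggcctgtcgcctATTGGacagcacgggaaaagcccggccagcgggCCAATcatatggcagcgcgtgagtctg
Srebf2, chr15:82147019-82147180, plus strand: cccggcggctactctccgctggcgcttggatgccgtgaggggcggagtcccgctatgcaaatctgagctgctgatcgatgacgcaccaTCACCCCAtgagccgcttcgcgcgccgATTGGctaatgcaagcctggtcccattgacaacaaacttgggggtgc
For counts, the whole 250 bases before a start site were searched, annotated exons included, as for all genes. On that basis CCAAT was held by 14 of 15 synthesis enzymes with a window, against 37.5% of 27025 genes. Acat2 was the exception and held neither motif. In the stretches cut to leave out annotated exons the count was 9 of 15, since the matches of Cyp51, Dhcr7, Idi1, Msmo1 and Tm7sf2 fell outside them. For Idi1, Tm7sf2 and the Dhcr7 window with the matches, the cut left 0 bases, and for Msmo1 it left 36. Those stretches could therefore show little or nothing, though the genes still count among the 15. The core TCACNCCA was found in Hmgcs1, Msmo1 and Srebf2, 3 of the 23 genes, against 4.20% of all genes, and in the cut stretches of 2 of the 23, not in that of Msmo1. No share over all genes was computed for cut stretches. In Hmgcs1 its first letter lies 137 bases before the start site, with CCAAT boxes at 237, 176 and 45 bases. In Lss the CCAAT box lies at 62 bases and in Mvd at 60 and 27 bases. GGGCGG, the GC box bound by Sp1, was found in 20 of 23 genes against 35.4% of all genes, and CACGTG, an E-box, in 6 of 23 against 6.86%. The 27025 genes behind these shares were not limited to the 13963 tested, to which all members belong, so the sets compared are unlike. A match describes the letters only and is not a binding site, and a missing match says nothing about the factor.

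After the extract, Acat2 and Lss were higher and Insig2 was lower, and the other 27 genes did not pass the threshold, an adjusted p under 0.05 over all genes in edgeR's quasi-likelihood test. Of 13963 genes tested, 4.91% were higher and 3.63% lower. Among the members 2 of 30 (6.67%) were higher and 1 of 30 (3.33%) was lower, so the share of calls was near that of all genes. At an unadjusted p under 0.05 there were 8 of 30 (26.7%), where 23.5% of all genes were. Both extract libraries lay above both control libraries in 10 members and below them in 7, where 27.6% and 26.7% of all genes did so. The median log2 fold change was 0.18 over the 30 members, 0.25 over the 18 enzymes and -0.15 over the other 12 genes, and -0.00473 over all genes tested.

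**Figure D1:**
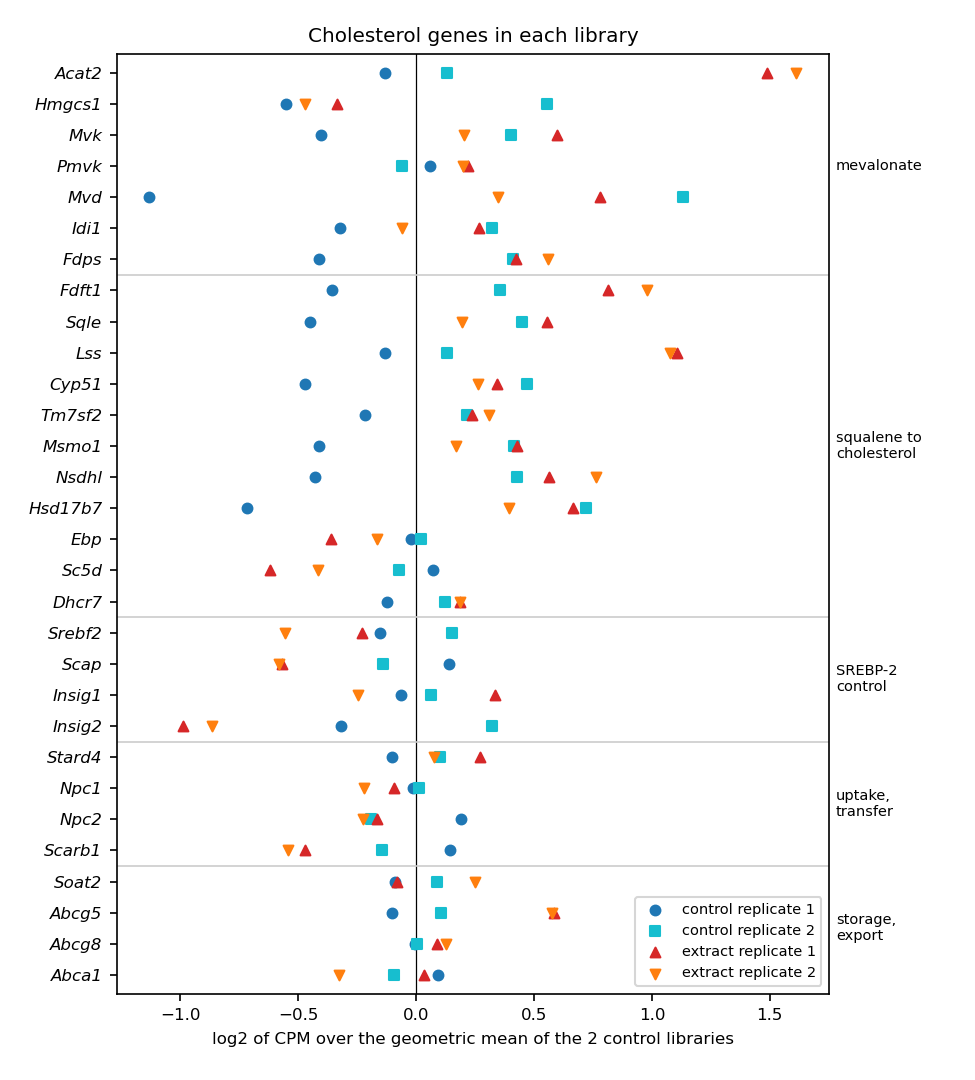
Each point is 1 library, placed by the log2 of its CPM over the geometric mean of the control libraries, with the 30 genes in rows by role. Both extract libraries lie far to the right of both controls in Acat2 and Lss and to the left in Insig2, while control replicate 1 is the lowest point for most enzymes from Hmgcs1 to Hsd17b7.

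The first enzymes of the pathway make and activate mevalonate. Acat2, the cytosolic thiolase that joins acetyl-CoA units, lies on chromosome 17 (12943042 to 12960725, minus strand, mm10). Control libraries held 3042 and 2255 of its reads and extract libraries 8391 and 10110, or 63.4 and 75.9 against 195 and 212 CPM. The groups were far apart next to their spread, at 69.7 ± 8.83 against 203 ± 12.5 CPM (SD, n = 2 libraries each), a 2.92-fold rise (edgeR adjusted p = 0.00275, log2 fold change 1.55 with an SE of 0.15). Of 2611 stretches of 75 bases in Acat2 transcripts, 886 (33.9%) also occur in its neighbour Acat3 and some of these in Tcp1, so single reads can be shared, and the pseudogene Gm20591 overlaps Acat2. Acat3 itself lay at 240.4 and 240.4 CPM in control and 250.01 and 277 CPM among extract libraries (log2 fold change 0.13, edgeR adjusted p = 0.632), and Tcp1 at 132 and 146 against 179.6 and 213 CPM (0.50, edgeR adjusted p = 0.100).

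Hmgcs1, the synthase that makes HMG-CoA, had the largest SD of the members among controls, 291 CPM. Control libraries showed 357 and 768 CPM and extract libraries 415 and 377 CPM, so both extract values lay between the controls (log2 fold change -0.51, 95% interval -1.43 to 0.41, edgeR adjusted p = 0.487). Mvk, the mevalonate kinase, was at 22.4 and 39.1 against 44.8 and 34.1 CPM, and Pmvk, the next kinase, at 66.4 and 61.3 against 74.3 and 73.2 CPM. Mvd, the decarboxylase that yields isopentenyl diphosphate, had 702 and 2085 counts among controls, or 14.6 and 70.2 CPM, and 55.0 and 40.8 CPM after the extract. Its control values differed 4.80-fold, and the interval of its log2 fold change ran from -2.29 to 2.65 around 0.18. Idi1, the isomerase of that product, was at 121 and 189 against 182 and 145 CPM, and Fdps, which builds farnesyl diphosphate, at 216 and 382 against 386 and 424 CPM. In both, control replicate 1 was the lowest of the 4 libraries.

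The enzymes from squalene onward are specific to sterols. Lss, lanosterol synthase, which folds oxidosqualene into the first sterol, lies on chromosome 10 (76531565 to 76557139, plus strand). It was at 74.5 and 89.2 CPM in control and 176 and 172 CPM in extract libraries, with no overlap and a 2.12-fold rise (81.8 ± 10.4 against 174 ± 2.61 CPM, SD, n = 2 each, edgeR adjusted p = 0.00833, log2 fold change 1.09 with an SE of 0.15). Its adjusted p was 0.0585 without extract replicate 1. Lss shares 1.15% of its stretches with the overlapping gene 4930483K19Rik, which had between 2 and 37 counts per library.

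Fdft1, squalene synthase, commits farnesyl diphosphate to sterols. Its values were 131 and 215 CPM in control and 295 and 331 CPM in extract libraries, again without overlap (log2 fold change 0.86, 95% interval 0.27 to 1.44, edgeR adjusted p = 0.0897). It passed with DESeq2 (adjusted p = 0.00890) and in edgeR against either control library alone (0.0135 and 9.47e-10), fits in which over 12% of all genes were higher. It did not pass with limma-voom (0.0747), without extract replicate 1 (0.256) or 2 (0.386), or with a minimum fold of 1.5 (0.477). Without a filter on low counts the edgeR adjusted p of Fdft1 was 0.0462, and with a replicate block it was 0.0210. Of its stretches, 21.8% also occur in transcripts of the overlapping gene Ctsb or the pseudogene Gm6781, and Ctsb had a log2 fold change of -0.12 (edgeR adjusted p = 0.765). Nsdhl, which removes the C4 carboxyl group, showed 58.8 and 107 against 117 and 135 CPM (log2 fold change 0.61, edgeR adjusted p = 0.271). Tm7sf2, a sterol C14 reductase, was at 177 and 239 against 242 and 255 CPM, and Dhcr7, the final reductase of one branch, at 104 and 123 against 129.2 and 128.9 CPM. In these 3 genes both extract libraries lay above both controls, but the groups were closer to each other than the controls were.

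For 4 further enzymes the extract values lay within the control range or crossed its upper end. Sqle, the squalene epoxidase, was at 81.2 and 151 against 163 and 127 CPM, and Cyp51, the lanosterol demethylase, at 201 and 387 against 354 and 335 CPM. Msmo1, the C4 methylsterol oxidase, showed 147 and 259.99 against 263 and 219.5 CPM. Hsd17b7, which reduces the C3 ketone, ranged most after Mvd among controls, at 44.8 and 121 against 117 and 96.9 CPM. In each of the 4, control replicate 1 was lowest and the other 3 libraries stood close together.

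In 2 late enzymes both extract libraries lay below both controls. Sc5d, the C5 desaturase, was at 632 and 574 CPM in control and 392 and 451 CPM in extract libraries, without overlap (log2 fold change -0.52, 95% interval -0.88 to -0.15, edgeR adjusted p = 0.0942, 0.0227 with DESeq2, 0.664 without extract replicate 1). Ebp, the sterol isomerase, was at 275 and 283 against 218 and 249 CPM (-0.26, edgeR adjusted p = 0.338). Neither passed the threshold.

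**Figure D2:**
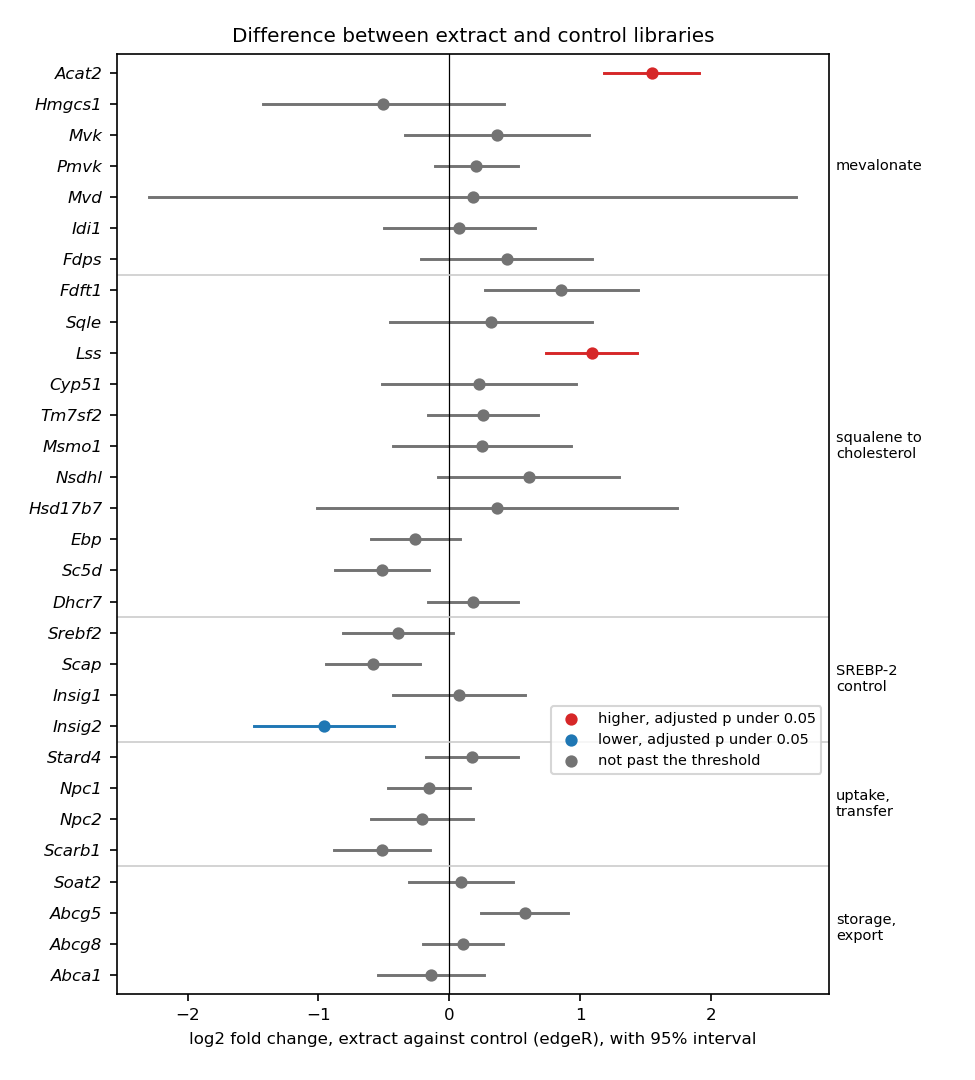
Points give the log2 fold change of each gene, extract against control, and bars the 95% interval from edgeR with 2 libraries per group. Acat2 and Lss (higher) and Insig2 (lower) are coloured, and the widest bar is that of Mvd, from -2.29 to 2.65.

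The enzymes as a whole showed how far the controls were apart. The 18 enzymes summed to 2788 and 4135 CPM among controls and to 3816 and 3806 CPM after the extract. The extract pair stood between the controls, with group means of 3461 ± 953 CPM for control and 3811 ± 7.22 CPM for extract (SD, n = 2 each). An exact permutation test of 2 against 2 libraries cannot give a p under 0.333, so it cannot decide whether the sums differed. Control replicate 2 was above control replicate 1 in 16 of 18 enzymes, by a median of 1.69-fold and up to 4.80-fold, while it was above in 46.9% of all genes tested, with a median of 0.979-fold. Only Pmvk and Sc5d were lower in control replicate 2. Between the extract libraries the ratios of the enzymes ran from 0.741 to 1.15. The 12 other members had control ratios from 0.767 to 1.56, with a median of 1.05. On the log2 scale, the gap between the controls was larger than the difference between the groups for the synthesis enzymes other than Acat2, Lss, Fdft1, Sc5d, Ebp and Pmvk, and what set the control libraries apart was not tested.

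**Figure D3:**
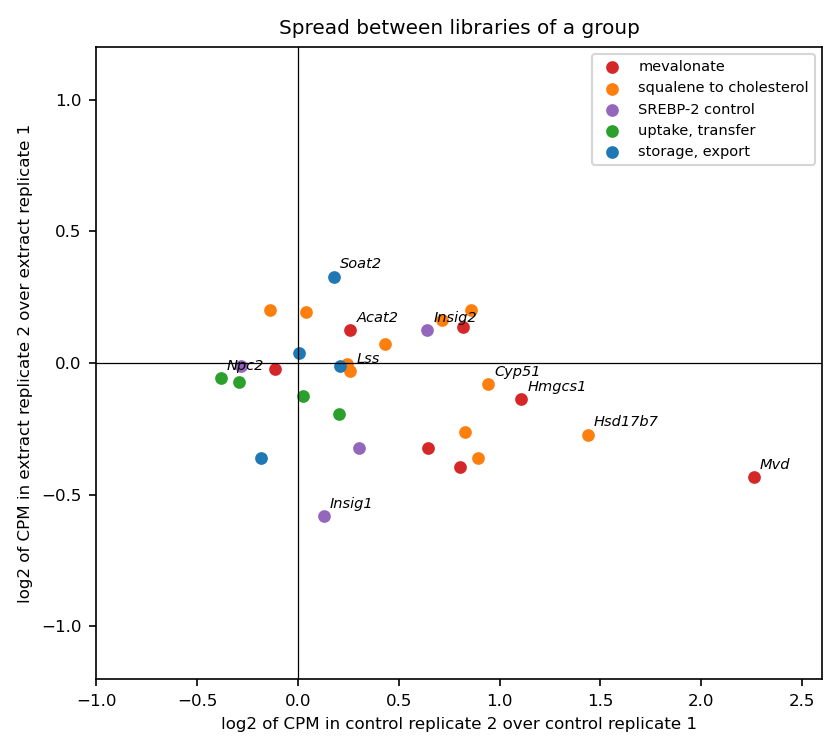
Each point is 1 gene, with the log2 ratio of the control libraries (replicate 2 over replicate 1) on the horizontal axis and that of the extract libraries on the vertical axis. Most enzymes lie to the right of 0, out to Mvd at 4.80-fold, while the extract ratios stay between 0.668 (Insig1) and 1.26 (Soat2).

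The calls depended on which control library was used. With control replicate 1 as the lone control, 13 of 18 enzymes were higher and 1 was lower, where 12.4% and 12.2% of all genes were. With control replicate 2 as the lone control, 3 were higher and 2 lower, where 12.8% and 9.96% were. The median log2 fold change of the enzymes was 0.80 against control replicate 1 and -0.0253 against control replicate 2. These fits take the spread of the single control to be that of the extract pair, which was the smaller. Over all 30 members, Acat2, Lss, Fdft1 and Abcg5 were higher and Scap and Insig2 lower against either control library. Mvd was higher against one (log2 fold change 1.71) and lower against the other (-0.55), and 7 enzymes in all changed sign. The 12 genes outside synthesis kept their sign in 12 of 12. The shares of all genes called in the same direction against both control libraries, or keeping their sign, were not computed.

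**Figure D4:**
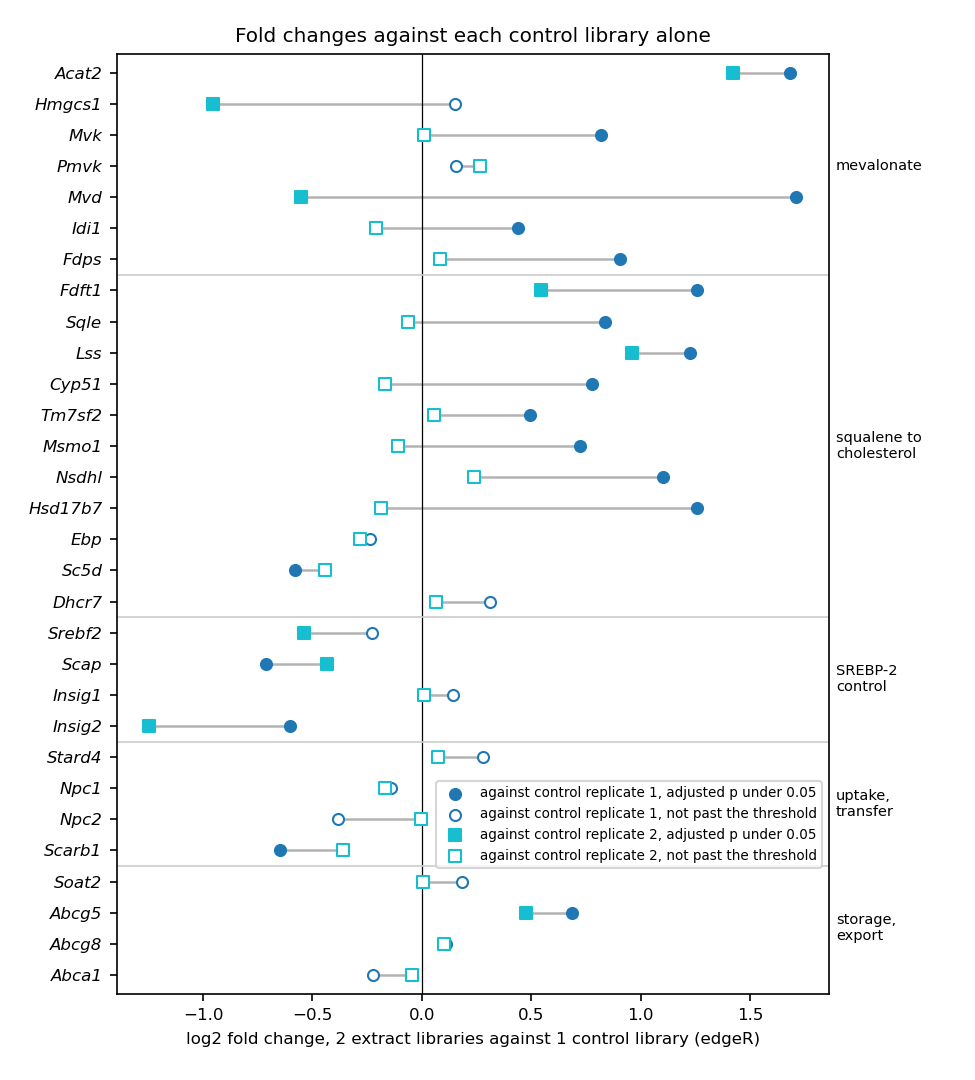
For each gene the circle is the log2 fold change of the extract libraries against control replicate 1 alone and the square that against control replicate 2 alone, filled where the edgeR adjusted p was under 0.05. Lines that cross 0 mark the 7 enzymes whose sign changed, and Mvd spans 1.71 to -0.55.

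Among the regulators, Insig2 fell. Insig2, a membrane protein that retains the Scap complex, lies on chromosome 1 (121304353 to 121332662, minus strand) and had 9973 and 9625 counts in control and 5643 and 6795 counts in extract libraries. In CPM these were 208 and 324 against 131 and 143, both extract values below both controls, a 1.94-fold decrease (edgeR adjusted p = 0.0495, log2 fold change -0.96 with an SE of 0.22). The call sat at the threshold: the adjusted p was 0.05005 under a strict filter on low counts, 0.0537 without the robust step, 0.263 without extract replicate 1 and 0.170 without extract replicate 2. RefSeq gives Insig2 several start sites, and counts per gene do not separate them.

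Insig1, the Insig protein that SREBP-2 itself induces, stood at 485 and 529.6 CPM in control and 640.1 and 428 CPM in extract libraries, and the groups overlapped (log2 fold change 0.07, 95% interval -0.43 to 0.58). Scap, the escort of SREBP-2, was at 203 and 167 against 124 and 123 CPM, without overlap but not past the threshold (log2 fold change -0.58, edgeR adjusted p = 0.0645). It passed with DESeq2 (0.0120) and without a filter on low counts (0.0329), and had an adjusted p of 0.412 and 0.381 without extract replicate 1 and 2. With a replicate block the edgeR adjusted p of Scap was 0.0398. Srebf2 was at 79.3 and 98.0 against 75.2 and 60.0 CPM (-0.39, edgeR adjusted p = 0.243).

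In uptake and transfer, no gene passed the threshold. Scarb1, the receptor that takes cholesterol from high-density lipoprotein, showed 209 and 171 CPM in control and 137 and 129.9 CPM in extract libraries, without overlap (log2 fold change -0.51, 95% interval -0.88 to -0.15, edgeR adjusted p = 0.0964, 0.0374 with DESeq2, 0.509 without extract replicate 2). Stard4, a cytosolic sterol carrier and a target of SREBP-2, was at 120.1 and 138 against 155 and 136 CPM (0.17, edgeR adjusted p = 0.558). The lysosomal pair moves cholesterol out of lysosomes, with Npc2 handing it to Npc1 in the membrane. Npc1 was at 107 and 109 against 101 and 93.0 CPM and Npc2 at 129.6 and 99.4 against 101 and 97.2 CPM, with log2 fold changes of -0.16 and -0.21. Npc2 is abundant in macrophages as well, beside the Kupffer cell markers given above, whose part in its values was not tested.

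Storage and export genes also stayed under the threshold, with Abcg5 closest to it. Abcg5 and Abcg8 are half-transporters that work only as a pair in exporting sterols to bile. They lie head to head on chromosome 17. The RefSeq start sites used here, at 84683011 for Abcg5 and 84683121 for Abcg8, leave 109 bases between them. The RefSeq span of Abcg8 begins farther upstream, at 84676302, inside that of Abcg5 (84658174 to 84683011), so the genes overlap. The window of a further Abcg8 start site lay wholly in annotated exons. Of the stretches of 75 bases, 9 occur in transcripts of both genes. The 109 bases are printed here because they lie before both start sites used.
Abcg5 and Abcg8, chr17:84683012-84683120, plus strand: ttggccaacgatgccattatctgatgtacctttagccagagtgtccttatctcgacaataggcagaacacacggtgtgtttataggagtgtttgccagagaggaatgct
The stretch held neither TCACNCCA nor CCAAT. Abcg5 was at 94.7 and 109 CPM in control and 153 and 152 CPM in extract libraries (edgeR adjusted p = 0.0535, log2 fold change 0.58 with an SE of 0.14). It passed with DESeq2 (0.00954), limma-voom (0.0473) and without a filter on low counts (0.0256). It did not pass without extract replicate 1 or 2, with a log2 fold change of 0.56 in either fit. Those fits called fewer of all genes in both directions. With a replicate block the edgeR adjusted p of Abcg5 was 0.0341. Abcg8 showed 105.5 and 105.96 against 112 and 115 CPM, also without overlap but with a log2 fold change of 0.11 (95% interval -0.20 to 0.41, edgeR adjusted p = 0.685). The difference between the fold changes of the 2 partners was not tested. Soat2, which esterifies cholesterol in hepatocytes, was at 26.3 and 29.7 against 26.4 and 33.2 CPM, and Abca1, which loads cholesterol onto apolipoprotein A1, at 207 and 182 against 199 and 155 CPM. Both overlapped between the groups.

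Levels can be compared between genes only per length of transcript. In CPM per kb of exon, control means were highest for Fdps (206), Insig1 (188), Hmgcs1 (162) and Ebp (160.3) and lowest for Soat2 (12.7), Mvk (15.4) and Hsd17b7 (16.5). After the extract, Fdps (279) and Insig1 (198) stayed at the top, and Acat2 went from 27.95 to 81.6 and Lss from 17.5 to 37.2 CPM per kb. For Fdps, Idi1, Acat2 and Fdft1, over 20% of the stretches of 75 bases also occur in transcripts of other genes, so their levels are less certain.

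Other genes of the pathway were read from 4 lists, where 4.91% of all genes tested were higher and 3.63% lower. Of 14 tested enzymes and SREBP-2 targets outside the set, 1 was higher (7.14%) and 1 lower (7.14%). Por, the reductase that passes electrons to Cyp51 and Sqle as well as to drug-metabolising P450 enzymes, rose from 286 and 345 to 744 and 732 CPM (log2 fold change 1.22, edgeR adjusted p = 0.00694). Acat1, the mitochondrial thiolase of ketone and isoleucine metabolism, fell from 380.4 and 606 to 167 and 219 CPM (-1.35, edgeR adjusted p = 0.0283). Its direction was opposite to that of the cytosolic enzyme Acat2.

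Of 16 genes of SREBP processing and of the oxysterol receptor LXR, Srebf1 was higher and Mylip lower (6.25% each). Srebf1, which encodes the SREBP form that drives fatty acid synthesis, rose from 178 and 151 to 419 and 367 CPM (log2 fold change 1.26, edgeR adjusted p = 0.00672). Mylip, an LXR-induced ubiquitin ligase that degrades lipoprotein receptors, fell from 15.4 and 10.03 to 5.73 and 4.68 CPM (-1.29, edgeR adjusted p = 0.0343). The LXR genes Nr1h3 (-0.16) and Nr1h2 (-0.33) did not pass, nor did the proteases Mbtps1 (0.02) and Mbtps2 (0.46) that cleave SREBP.

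On the transport list, 1 of 24 tested genes was higher and 1 lower (4.17% each), near the shares of all genes, 4.91% and 3.63%. Pltp, the phospholipid transfer protein, rose from 26.6 and 34.5 to 66.8 and 60.7 CPM (log2 fold change 1.06, edgeR adjusted p = 0.0138). Soat1, the esterifying enzyme of macrophages and other non-hepatocytes, fell from 7.80 and 6.26 to 2.36 and 2.08 CPM (-1.66, edgeR adjusted p = 0.0166), beside the fall of the Kupffer cell markers, whose part in it was not tested.

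Among 9 enzymes that break cholesterol down to bile acids and oxysterols, 1 was higher (11.1%) and 2 were lower (22.2%). Cyp8b1, which sets the share of cholic acid, fell from 182 and 238 to 11.7 and 9.91 CPM (log2 fold change -4.28, edgeR adjusted p = 0.000292), and Hsd3b7, an early enzyme of both bile acid routes, fell by 1.37 on the log2 scale (edgeR adjusted p = 0.0187). Ch25h, the cholesterol 25-hydroxylase, rose from 0.479 and 0.0337 to 4.01 and 3.92 CPM (3.81, edgeR adjusted p = 0.0394). The value in control replicate 2 is that of a single read, under the 0.101 CPM that 3 counts give in that library. Its ratio to control replicate 1 was 0.0702, so the size of the Ch25h rise is uncertain. Cyp7a1, the rate-limiting enzyme of bile acid synthesis, was at 115 and 64.7 against 275 and 167 CPM and did not pass (1.30, edgeR adjusted p = 0.113).

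Sterol synthesis in liver follows the daily cycle, so clock genes were read in the same libraries. Of 17 tested, 10 were higher (58.8%) and 5 lower (29.4%), where 4.91% and 3.63% of all genes were. Among them Per2 (log2 fold change 3.40), Per3 (4.68) and Nr1d2 (2.78) were higher, and Arntl (-2.42) and Npas2 (-4.68) were lower. Within the control pair, the ratio of replicate 2 over replicate 1 ran from 0.196 (Dbp) to 2.29 (Nr1d1) over the clock genes, with Per1 at 0.416, so the control libraries also differed in some of these genes. The part of the clock genes' shift in the values of the cholesterol genes was not tested.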

How the data were processed

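Liver RNA of 2 control and 2 extract libraries was sequenced. Each deposited file gives whole-number counts per gene symbol, without normalization by the authors. CASAVA 1.8, HISAT2 2.1.0, HTSeq and the mm10 build are named per the submitters' processing notes; as annotation, strand setting and HTSeq version were not given in the sources used here, antisense overlaps cannot be told apart. The 5 rows naming no gene (no feature 8.40% to 10.2% of records, no unique place 5.18% to 9.03%) were left out.

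Groups follow the sample titles. Counts were fitted over all 13963 genes kept by filterByExpr with edgeR 4.0.16 (R 4.3.3; TMM scaling, robust quasi-likelihood F test, 2-sided, no covariate), with Benjamini-Hochberg adjustment and a threshold of 0.05. The biological coefficient of variation was 22.3%. A standard error is the log2 fold change over the square root of F. A count of 0 would allow 3 counts, or 0.0625 to 0.101 CPM, for counting error only. The step was also run on counts simulated from this fit's own means and dispersions. No result of that run is used here, and it cannot check a spread estimated from 2 libraries per group. All 30 members are named, and of each further list at most 5 called genes, by smallest p, whose mean reached 1 CPM; the LXR genes, SREBP proteases, Cyp7a1, Acat3, Tcp1, Ctsb, Dbp, Nr1d1, Per1, Gm6781, Gm20591 and 4930483K19Rik are named beyond that rule and were chosen after their values were seen, as were the promoter motifs. Members and lists were chosen with earlier results of these data known. The list genes were found by symbol or RefSeq synonym. Replicate libraries differed by more than sampling noise (chi-square over degrees of freedom 118 for control, 29.1 for extract). Alternatives were other scalings, DESeq2 1.42.0, limma-voom (limma 3.58.1), other filters, no robust step, a minimum fold of 1.5, each library left out and a replicate block.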

Additional observations from a re-analysis of the deposited data

How the results depend on the processing

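With 2 libraries per group, precision is limited by their spread and not by depth. The fits without an extract library called fewer of all genes than the full fit, in both directions. Failing to pass in those fits was therefore not particular to members such as Insig2, Lss, Fdft1, Scap or Abcg5. Acat2 stayed past the threshold in every alternative run, with adjusted p from 4.95e-16 to 0.0115, and Lss in all but the one without extract replicate 1. Against the 2 members higher, DESeq2, the fit without a filter and the replicate block each gave 4, and leaving out libraries gave 1 to 14. Against the 1 lower, DESeq2 gave 4, the fit without a filter and the replicate block 2, and the fits without the robust step, with the strict filter and with a minimum fold of 1.5 gave 0, with 0 to 5 over left-out libraries. Enzymes called higher ran from 1 to 13 and lower from 0 to 2 over left-out libraries, and DESeq2 called 1 lower. Of the genes outside synthesis, DESeq2, limma-voom, the fit without a filter and the replicate block each called 1 higher (0 as reported, 4 at an unadjusted p under 0.05 in either direction; 0 to 1 over left-out libraries). DESeq2 called 3 of them lower, the fit without a filter and the block 2, and the fits without the robust step, with the strict filter and with the minimum fold 0, with 0 to 3 over left-out libraries. Over all genes, 686 higher became 314 with the minimum fold and 233 to 1826 over left-out libraries, and 507 lower became 904 with DESeq2, 186 with the minimum fold and 134 to 1782 over left-out libraries. Of all genes in the fit, 6.91% were higher and 6.1% lower with DESeq2, and 5.16% and 3.62% with limma-voom. These shares were 5.08% and 3.99% without a filter, and 6.46% and 4.88% with the replicate block. The members' median ran from -0.0241 without control replicate 1 to 0.30 without control replicate 2. Signs of log2 fold changes reversed without control replicate 1 for Mvd (-0.55), Idi1 (-0.21), Sqle (-0.062), Cyp51 (-0.17), Msmo1 (-0.11) and Hsd17b7 (-0.18), without control replicate 2 for Hmgcs1 (0.15), without extract replicate 1 for Mvd (-0.07), Idi1 (-0.11) and Insig1 (-0.26), and without extract replicate 2 for Soat2 (-0.10) and Abca1 (0.0121). The other ends of their ranges were 1.71 for Mvd, 0.44 for Idi1, 0.84 for Sqle, 0.78 for Cyp51, 0.72 for Msmo1, 1.26 for Hsd17b7, -0.96 for Hmgcs1, 0.31 for Insig1, 0.23 for Soat2 and -0.34 for Abca1. The cause was not tested. Deviations of same-numbered libraries correlated at 0.220 across genes, but nothing in the labels pairs the samples, which share only a number.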
